A study of Mus musculus with 12 samples.

Results

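Transcripts of 9 complement genes were followed in whole lung of mice given extract of Dermatophagoides farinae (D.f.), a house dust mite. The genes were taken by symbol and are C1qa, C1qb, C1qc, C1ra, C2, C3, C4b, Cfb and Serping1. All 9 were listed in all 12 libraries, among 33924 gene symbols in one set of 6 libraries and 22609 in the other, and all 9 passed the filter on low counts in every fit. One set, called the RNase III set, compares wild-type mice given D.f. extract with RNase III, which digests double-stranded RNA (n = 2), D.f. extract without the enzyme (n = 2) or PBS, a saline control (n = 2). The other, the knockout set, holds TLR3MAVS double knockout mice given D.f. extract (n = 2), wild-type mice given D.f. extract (n = 2) and 1 PBS library of each genotype. Tlr3 senses double-stranded RNA in endosomes, and Mavs relays the signal of RNA sensors in the cytosol. All mice were on the B6 background and 6 to 8 weeks old, and the extract was given for 14 to 16 h. No library had PBS with RNase III, so effects of the enzyme on its own cannot be told apart from those on the extract. The knockout lacks both genes at once, so their separate parts cannot be told apart either.

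Complement is a cascade of plasma proteins that tags particles and damaged cells for uptake and can pierce membranes. In the classical pathway C1q, built from the products of C1qa, C1qb and C1qc, binds its target and activates the proteases C1r and C1s. C1s then cuts C4 and C2, which form the enzyme that cleaves C3. C1 inhibitor (Serping1) restrains C1r and C1s. In the alternative pathway, factor B (Cfb) joins cleaved C3 to form a second such enzyme that amplifies the reaction. The liver is the main source of most of these proteins in plasma, macrophages make C1q, and epithelial and stromal cells of inflamed tissue can make C3 and factor B.

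Each library of the RNase III set held 17754518 to 25714074 reads assigned to genes, and each of the knockout set 15687699 to 20945618. Levels are given as CPM, reads scaled to the size of the library. A count of 0 allows up to 3 reads, or 0.117 to 0.191 CPM, a limit that covers counting error only. The lung surfactant gene Sftpc was at 2473 to 7332 CPM, and markers of hepatocytes, the main producers of plasma complement, were near absent: the 12 markers summed to 7.40 to 34.0 CPM, and albumin (Alb) reached 11.1 CPM in D.f. double knockout replicate 5 and at most 1.20 CPM elsewhere. In the double knockout Mavs was at 2.66 and 2.35 CPM with D.f. and 3.09 CPM with PBS, against 34.3 and 32.2 CPM with D.f. and 36.4 CPM with PBS in wild type of the same set. Tlr3 was at 14.8 and 10.04 CPM in D.f. double knockout libraries and 10.5 CPM in the PBS one, against 156 and 113 CPM in D.f. wild type and 42.4 CPM in PBS wild type. PBS replicate 2 of the RNase III set stood apart from replicate 1, with cardiac muscle markers summing to 1383 CPM against 152 CPM in replicate 1 and neutrophil markers to 175 CPM against 46.6 CPM. Double knockout D.f. replicate 6 stood apart from replicate 5, with neutrophil markers at 294 CPM against 94.8 CPM in replicate 5 and monocyte and interstitial macrophage markers at 1360 CPM against 952 CPM. The labels do not say that replicates are separate animals, so p-values rest on differences between these libraries, and those may be technical. In whole lung, fewer cells of a type and less RNA per cell cannot be told apart.

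Cfb and C2 lie next to each other on chromosome 17 of mouse build NCBIM37 (mm9), on the minus strand, Cfb at chr17:34993319-34999463 and C2 at chr17:34999549-35035397. The gene model Gm20547, at chr17:34993357-35018987, runs over both and shares 100% of its own exon bases with them. It is listed only in the tables of the RNase III set, where it has 0 reads in all 6 libraries. Where it is listed, 79.5% of the exon bases of Cfb and 44.8% of those of C2 are shared with another listed gene, against 0% and 3.97% by the gene list of the knockout set. Each library of the RNase III set held 4 to 77 Cfb reads, and each of the knockout set held 522 to 10934. Levels of Cfb and C2 were therefore compared only within a set, and the part of this overlap in the results was not tested. When the reads of Cfb and C2 were summed, an alternative chosen after seeing the data, the call was the same as for Cfb in each of the 8 comparisons. This sum cannot test the overlap, because reads lost to shared exons would be in neither count. Most summed reads were of C2 in the RNase III set and of Cfb in the knockout set.

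**Figure D1:**
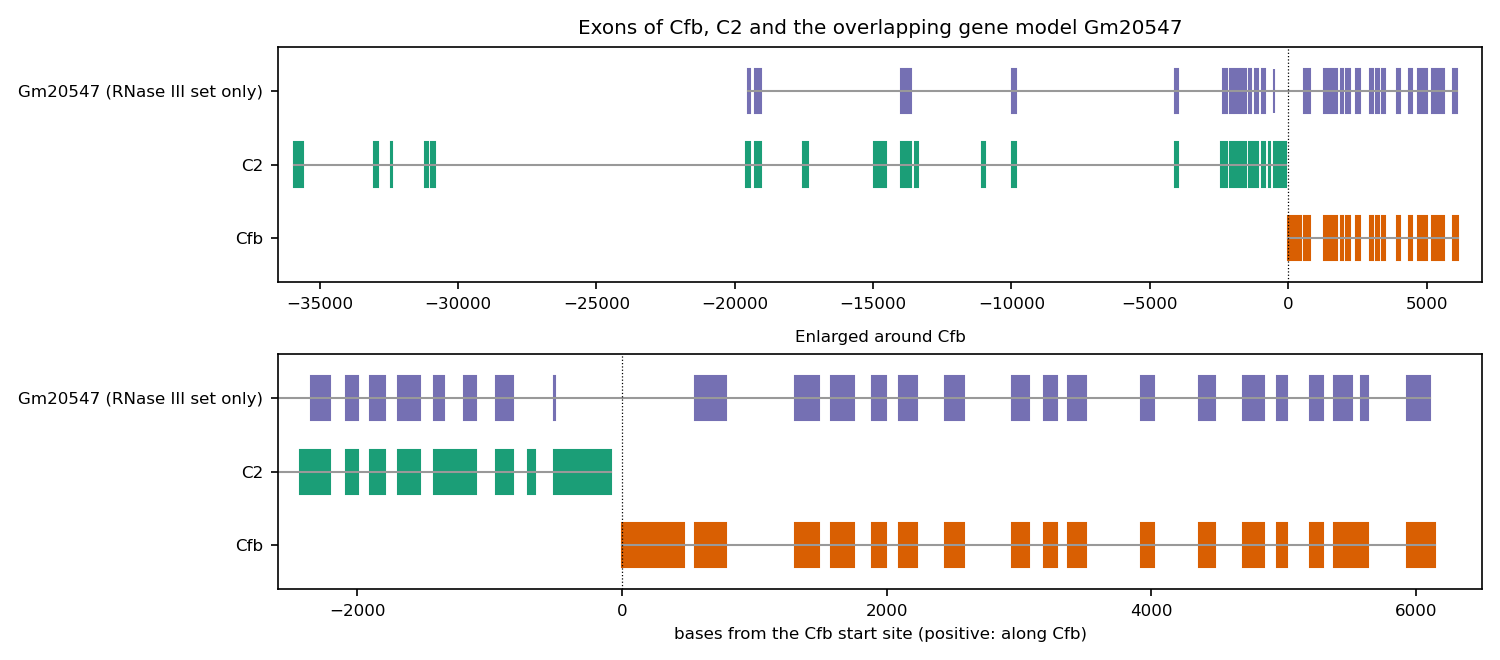
Exons of the overlapping gene model Gm20547, C2 and Cfb, by distance in bases from the Cfb start site, positive along Cfb (top, all 3 genes; bottom, enlarged around Cfb). Boxes are exons from the GENCODE annotation of NCBIM37. Gm20547, listed only in the RNase III set, covers 79.5% of Cfb exon bases and overlaps exons of C2.

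Of the other members, C1ra shares 0.966% of its exon bases with C1rb and the remaining 6 share none with another listed gene. C1qa (chr4:136451832-136454718), C1qc (chr4:136445719-136448980) and C1qb (chr4:136436044-136442102) form a cluster on the minus strand of chromosome 4. C3 is at chr17:57343397-57367559, Serping1 at chr2:84605544-84615601 and C4b at chr17:34865325-34880827, all on the minus strand, and C1ra is on the plus strand at chr6:124462423-124473458. C4b shares 16.5% of its 100-base transcript windows with its copy C4a, and C1ra shares 34.0% with its copy C1rb, so reads of these genes are uncertain where copies share sequence. C4a itself stayed at 0.695 to 1.92 CPM and C1rb at 0.107 to 0.440 CPM.

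Per kilobase of exon, C3 was the most abundant member, at 148 to 648 CPM per kb over the 12 libraries, and Serping1 followed at 107 to 215 CPM per kb. C1qa (12.97 to 40.01 CPM per kb), C4b (17.03 to 36.6), C1qb (10.5 to 32.8) and C1ra (10.1 to 28.4) overlapped in level. C1qc had 5.95 to 16.04 CPM per kb. C2, also overlapped by Gm20547 where that is listed, had 1.48 to 6.44 CPM per kb in the RNase III set. In the knockout set it had 2.72 to 14.2 CPM per kb, overlapping with C1qc at 5.95 to 10.4. Cfb had 10.5 to 191 CPM per kb in the knockout set, and 0.0782 to 1.19 CPM per kb where Gm20547 was listed.

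**Figure D2:**
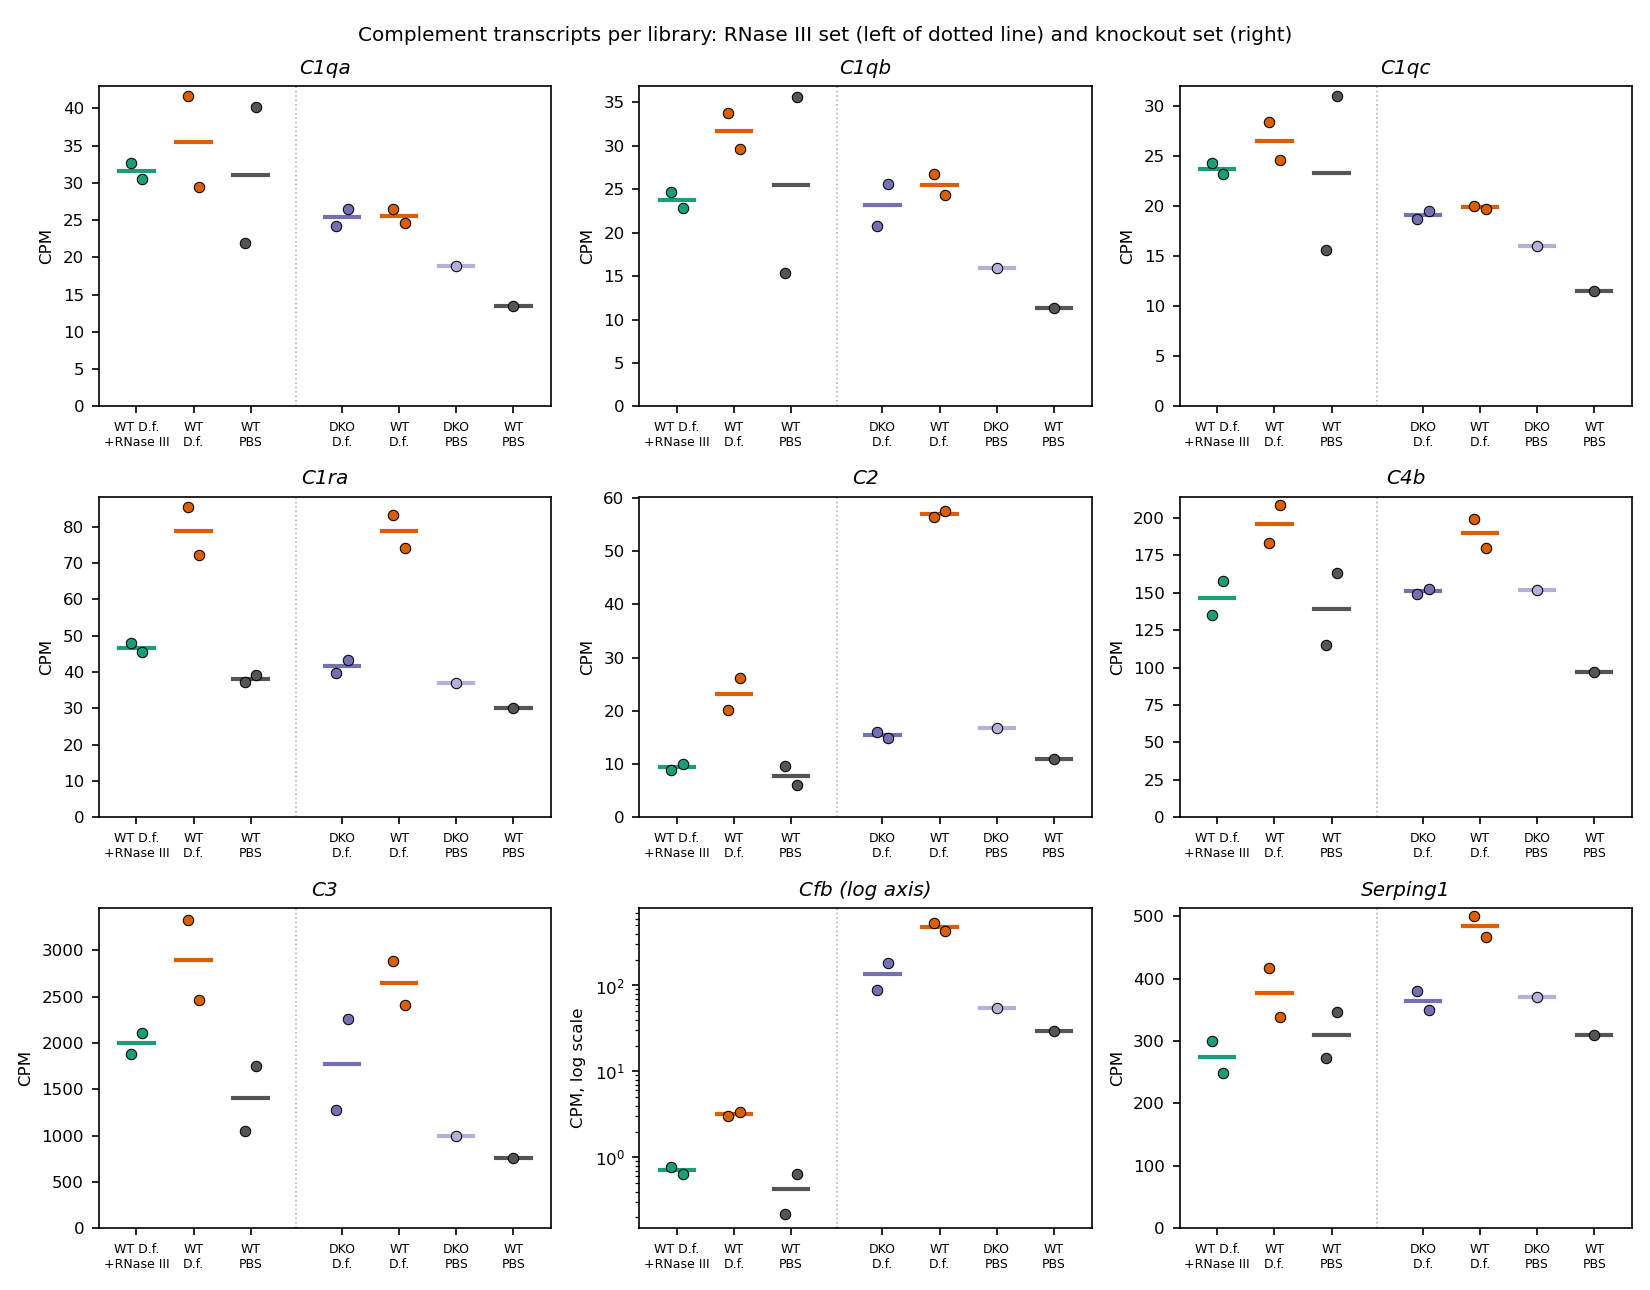
CPM of each of the 9 complement genes in every library (points) with the group mean (bars), in the RNase III set left of the dotted line and the knockout set right of it. Wild type with D.f. alone is highest for C1ra and C2 in both sets, at 72.2 to 85.4 CPM for C1ra, whereas the C1q genes overlap between D.f. and PBS in the RNase III set. The axis of Cfb is logarithmic, the others start at 0.

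C1qa, C1qb and C1qc, the 3 chains of the C1q recognition molecule, were called in none of the 8 comparisons by edgeR as fitted here. Without the filter on low counts, edgeR called C1qa (adjusted p = 0.0388) and C1qb (0.0357) higher with D.f. in wild type of the knockout set. That fit called 391 of 18363 genes there in either direction, against 232 of 15294 as fitted here. A fit of only the groups compared called all 3 there, among 3062 of 15048 genes called. C1qa had 32.7 and 30.5 CPM with D.f. and RNase III, 41.6 and 29.5 CPM with D.f. and 22.0 and 40.3 CPM with PBS. Its values in the knockout set were 24.2 and 26.5 CPM in D.f. double knockouts, 26.5 and 24.6 CPM in D.f. wild type, 18.8 CPM in the PBS double knockout and 13.5 CPM in PBS wild type. D.f. and PBS overlapped in the RNase III set, where PBS replicate 2 lay between the D.f. replicates, and both D.f. groups lay above both PBS libraries in the knockout set. C1qb had 24.7 and 22.8 CPM with D.f. and RNase III, 33.8 and 29.7 CPM with D.f. and 15.4 and 35.7 CPM with PBS, so the lowest and the highest library were both PBS. C1qc ranged from 15.6 to 31.0 CPM in that set and from 11.5 to 20.02 CPM in the other, with its lowest library again a PBS one in each. Between D.f. double knockout and D.f. wild type the log2 difference was -0.01 for C1qa (95% interval -0.29 to 0.27), -0.14 for C1qb (-0.50 to 0.22) and -0.06 for C1qc (-0.34 to 0.23). No difference was detected within these intervals. The 3 transcripts kept close proportions, with 0.701 to 1.01 C1qb reads and 0.681 to 0.852 C1qc reads per C1qa read over the 12 libraries. Alveolar macrophage markers, 10 of 11 listed, summed to 619 and 343 CPM with D.f. against 940 and 969 CPM with PBS in wild type of the RNase III set. In wild type of the knockout set they summed to 560 and 541 CPM with D.f. against 513 CPM with PBS. Their part in the C1q values was not tested.

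C1ra, which encodes the protease C1r of the C1 complex, was higher with D.f. in wild type of both sets and lower again with RNase III or without Tlr3 and Mavs. It had 47.9 and 45.4 CPM with D.f. and RNase III, 85.4 and 72.2 CPM with D.f. and 37.2 and 39.1 CPM with PBS. The knockout set gave 39.8 and 43.4 CPM in D.f. double knockouts, 83.2 and 74.0 CPM in D.f. wild type, 37.1 CPM in the PBS double knockout and 30.2 CPM in PBS wild type. D.f. wild type overlapped with no other group in either set. C1s, the partner protease of C1r, had 142 and 129 CPM with D.f. against 86.7 and 88.4 CPM with PBS in the RNase III set. The reads of C1s per C1ra read were 1.67 to 1.89 in the 4 wild-type libraries with D.f. alone and 2.26 to 2.64 in the other 8, a higher share of C1ra relative to C1s in D.f. wild type.

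C2, whose product is the protease of the classical C3-cleaving enzyme, was also highest in D.f. wild type. It had 8.92 and 9.95 CPM with D.f. and RNase III, 20.2 and 26.1 CPM with D.f. and 9.66 and 6.02 CPM with PBS. The corresponding values of the knockout set were 16.1 and 14.8 CPM in D.f. double knockouts, 56.4 and 57.6 CPM in D.f. wild type, 16.8 CPM in the PBS double knockout and 11.04 CPM in PBS wild type. D.f. wild type stood clear of all other libraries of its set in both sets. Cfb, the alternative pathway protease, had 0.771 and 0.642 CPM with D.f. and RNase III, 3.01 and 3.35 CPM with D.f. and 0.221 and 0.633 CPM with PBS. Its counts in the knockout set were far larger, with 89.6 and 182 CPM in D.f. double knockouts, 539 and 426 CPM in D.f. wild type, 54.7 CPM in the PBS double knockout and 29.7 CPM in PBS wild type. The D.f. double knockouts lay between the D.f. wild type and both PBS libraries, and replicate 6 was above replicate 5.

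C3, the central component that all pathways cleave, had 1885 and 2108 CPM with D.f. and RNase III, 3327 and 2459 CPM with D.f. and 1052 and 1750 CPM with PBS. It reached 1279 and 2263 CPM in D.f. double knockouts of the knockout set, 2880 and 2412 CPM in D.f. wild type, 993 CPM in the PBS double knockout and 757 CPM in PBS wild type. The groups did not overlap in either set, but replicate 6 of the D.f. double knockouts lay closer to D.f. wild type than to replicate 5. C4b, which encodes complement C4, had 135 and 158 CPM with D.f. and RNase III, 183 and 208 CPM with D.f. and 115 and 163 CPM with PBS. Its knockout set values were 149 and 152 CPM in D.f. double knockouts, 199 and 180 CPM in D.f. wild type, 151 CPM in the PBS double knockout and 97.0 CPM in PBS wild type. C4b was thus highest in D.f. wild type of both sets. Serping1, the C1 inhibitor, had 301 and 248 CPM with D.f. and RNase III, 417 and 338 CPM with D.f. and 272 and 346 CPM with PBS. Serping1 had 379 and 350 CPM in the D.f. double knockouts of the other set, 500 and 467 CPM in D.f. wild type, 371 CPM in the PBS double knockout and 310 CPM in PBS wild type. D.f. wild type was clear of all others for Serping1 there, while D.f. and PBS overlapped in the RNase III set.

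The first comparison asked which complement transcripts the extract changed in wild-type lung. Cfb, C2, C1ra and C3 were higher with D.f. than with PBS in the RNase III set (edgeR's quasi-likelihood test, Benjamini-Hochberg adjusted). These were 4 of 9 members, against a background of 6.51% of 17165 genes called higher. No member was called lower, against 4.50% of genes. Cfb was higher by 2.84 ± 0.46 (log2, SE; adjusted p = 0.0095), C2 by 1.57 ± 0.25 (0.0097), C1ra by 1.05 ± 0.13 (0.0034) and C3 by 1.05 ± 0.27 (0.049996, just under the threshold of 0.05). C4b (0.49) and Serping1 (0.29) had positive differences that were not called. The median log2 difference of the 9 members was 0.49, against -0.01 over all genes tested. Leaving out 1 library at a time called 1 to 7 members, and the number of genes called, 1890 with all libraries, moved as well. Without PBS replicate 2, 7 members and 3071 of 17491 genes were called, and without PBS replicate 1, 3 members and 2825 of 17721 genes. Without D.f. replicate 3 these were 2 members and 813 of 17530 genes, and without D.f. replicate 4, 1 member and 584 of 17463 genes. C1ra was called in all 6 of these fits, C2 was lost without D.f. replicate 4, Cfb without D.f. replicate 3 or 4, and C3 kept its call in these fits only without PBS replicate 2.

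With the lone PBS libraries of the knockout set assumed to vary like the replicated groups, 4 of 9 members were higher with D.f. in wild type, against 1.38% of 15294 genes called higher. Cfb was higher by 4.02 ± 0.51 (edgeR's quasi-likelihood test, Benjamini-Hochberg adjusted p = 0.0371), C2 by 2.37 ± 0.14 (0.0145), C1ra by 1.38 ± 0.14 (0.0274) and C4b by 0.97 ± 0.12 (0.0372). C3 had a log2 difference of 1.81 (0.0970) and the 3 C1q genes 0.79 to 1.17 (0.0598 to 0.0810), so these and Serping1 (0.64, 0.0869) were not called. No member and no gene was called without D.f. wild-type replicate 3 or 4. In those fits the spread came from the double knockout D.f. pair alone. Without double knockout D.f. replicate 5 or 6 it came from the wild-type D.f. pair alone, and more members and genes were called. Over the 5 fits that left out 1 library, estimates ran from 3.81 to 4.15 for Cfb, 2.33 to 2.37 for C2, 1.26 to 1.44 for C1ra and 0.86 to 1.01 for C4b. When the 7 wild-type libraries of both sets without RNase III were fitted together and the set was a covariate, 5 of 9 members were higher with D.f., against 9.18% of genes called higher. They were Cfb by 3.70 ± 0.32 (adjusted p = 0.00028), C2 by 1.88 ± 0.23 (0.0016), C3 by 1.33 ± 0.26 (0.0130), C1ra by 1.17 ± 0.12 (0.00056) and C4b by 0.67 ± 0.16 (0.0300), with edgeR's quasi-likelihood test. This fit called 3 to 9 members when 1 library was left out, with 9 without PBS replicate 2 of the RNase III set (2269 of 15055 genes called, against 2252 of 14953 with all libraries) and 3 without D.f. replicate 3 of that set (1112 of 14791 genes) or the wild-type PBS library of the knockout set (1871 of 15127 genes).

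Among genes of other cell types, the monocyte marker Ly6c2 was at 59.4 and 69.1 CPM with D.f. and 2.65 and 2.35 CPM with PBS (RNase III set). The 14 monocyte and interstitial macrophage markers together, Ly6c2 among them, summed to 899 and 852 CPM with D.f. against 797 and 797 CPM with PBS. The rise of Ly6c2 makes up most of that gap, so these sums do not show a clear rise of the other markers as a group. The 11 neutrophil markers, at most 1 of them at 0 in any library, summed to 381 and 244 CPM with D.f. against 46.6 and 175 CPM with PBS. In the other set 10 of them were listed and summed to 140 and 81.1 CPM with D.f. in wild type against 34.9 CPM with PBS. The part of these cells in the complement values was not tested.

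**Figure D3:**
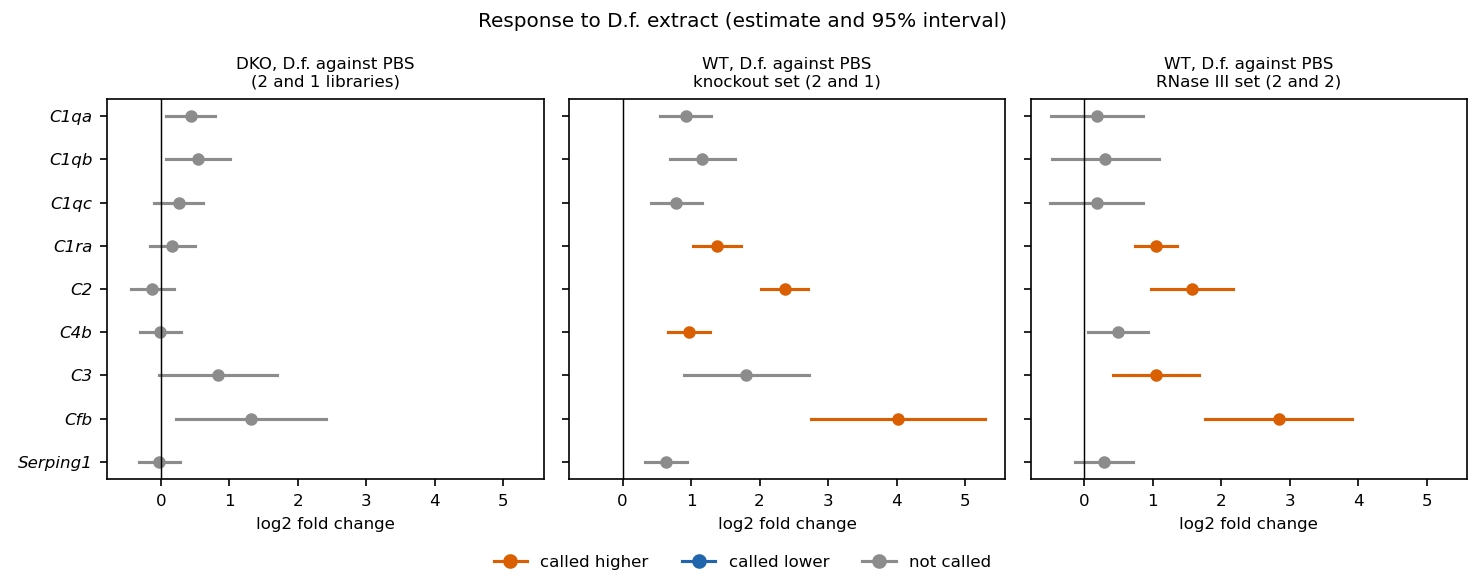
Log2 fold change of each complement gene with D.f. extract against PBS in the double knockout, in wild type of the knockout set and in wild type of the RNase III set (edgeR; points, estimates; lines, 95% intervals). Orange marks genes called higher at an adjusted p under 0.05 and grey those not called. Cfb is the farthest to the right in each panel, and no gene was called in the double knockout.

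The second comparison asked whether RNase III in the extract altered the response. When the extract held RNase III, C1ra, C2 and Cfb were lower than with D.f. without it, which is 3 of 9 members against a background of 4.85% of 17165 genes called lower, and all 9 estimates were below 0. C1ra fell by 0.76 ± 0.13 on the log2 scale (edgeR's quasi-likelihood test, Benjamini-Hochberg adjusted p = 0.0157), C2 by 1.30 ± 0.25 (0.0256) and Cfb by 2.16 ± 0.44 (0.0288). C3 (-0.54), Serping1 (-0.46) and C4b (-0.42) were not called, and the C1q genes had -0.16 to -0.42. No member was called when any 1 of the 4 libraries of this comparison was left out, and 146 to 537 genes were, against 1246 with all libraries. Ly6c2 was at 4.51 and 3.26 CPM with D.f. and RNase III, against 59.4 and 69.1 CPM with D.f. The 14 monocyte and interstitial macrophage markers it belongs to summed to 750 and 725 CPM with RNase III against 899 and 852 CPM with D.f. alone, and 6 of the 14 had a positive difference and 2 were called lower (median log2 difference -0.17). The 8 cardiac muscle markers summed to 227 and 205 CPM with RNase III against 516 and 1071 CPM with D.f. alone. The neutrophil markers summed to 93.9 and 128 CPM with RNase III against 381 and 244 CPM with D.f. alone. The part of these differences in the complement values was not tested. Against PBS, D.f. with RNase III called 0 of 9 members by edgeR's quasi-likelihood test, against 0.00583% of genes in either direction. None of the 9 had an unadjusted p under 0.05, against 4.86% of genes, and DESeq2 called 0 of the 9 and 47 of 17165 genes. The widest gaps there were 0.68 for Cfb (95% interval -0.54 to 1.89) and 0.51 for C3 (-0.11 to 1.14), and C1ra was next at 0.29 (-0.02 to 0.60). These intervals do not exclude a remaining difference of that size in these genes. This comparison shares its libraries with both others.

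The third comparison asked what the response was without Tlr3 and Mavs. In the double knockout, D.f. against PBS called 0 of 9 members by edgeR's quasi-likelihood test, against 0% of 15294 genes. Of the 9, 3 had an unadjusted p under 0.05, against 5.54% of genes, and DESeq2 called 0 of the 9 and 37 genes in all. The largest estimates were 1.31 ± 0.44 for Cfb (95% interval 0.22 to 2.41) and 0.84 for C3 (-0.03 to 1.70). C1qb (0.54, 0.08 to 1.01) and C1qa (0.43, 0.08 to 0.79) were, with Cfb, the 3 members whose interval lay above 0. C1qc was at 0.26 (-0.10 to 0.61), while C1ra (0.17), C2 (-0.12), C4b (-0.01) and Serping1 (-0.02) lay near 0. This result depended on the D.f. double knockout libraries, and members as well as many other genes were called when replicate 5 or 6 was left out. Such a fit set 1 library against 1, with the spread from the wild-type D.f. pair alone, so its calls cannot decide the question. Over the 5 fits that left out 1 library, the estimate ran from 0.71 to 1.73 for Cfb and from 0.36 to 1.19 for C3.

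With D.f., double knockout against wild type, C1ra was lower by 0.92 ± 0.11 on the log2 scale (edgeR's quasi-likelihood test, Benjamini-Hochberg adjusted p = 0.0243) and C2 fell by 1.88 ± 0.10 (0.0047). These were 2 of 9 members, against a background of 2.01% of 15294 genes called lower, and all 9 estimates were below 0. Cfb, at -1.83 ± 0.34, missed the threshold with an adjusted p of 0.0677, and so did Serping1 (-0.41, 0.111), C4b (-0.33, 0.163) and C3 (-0.58, 0.342). No member was called without D.f. wild-type replicate 3 (7 of 15217 genes called) or 4 (17 of 15335). Without double knockout replicate 5, 5 members and 3048 of 15219 genes were called, and without replicate 6, 6 members and 2479 of 15185 genes, against 387 genes with all libraries. Ly6c2 was at 6.06 and 3.35 CPM in D.f. double knockouts against 33.9 and 27.5 CPM in D.f. wild type. The 14 monocyte and interstitial macrophage markers together ran the other way, at 952 and 1360 CPM in D.f. double knockouts against 848 and 802 CPM in D.f. wild type. Neutrophil markers summed to 94.8 and 294 CPM in D.f. double knockouts against 140 and 81.1 CPM in D.f. wild type, and cardiac muscle markers at 106 and 185 CPM against 440 and 659 CPM in D.f. wild type, and their part in these values was not tested. The test of the difference between the 2 responses, the genotype by extract interaction, called 0 of 9 members by edgeR's quasi-likelihood test, against 0.00654% of genes called. Of the 9, 6 had an unadjusted p under 0.05, against 9.68% of genes, and DESeq2 called 3, against 213 of 15294 genes. All 9 estimates were below 0, with C2 at -2.49 ± 0.18 (adjusted p = 0.112), Cfb at -2.71 ± 0.60 (0.255), C1ra at -1.22 (0.161) and C4b at -0.97 (0.190). Over the 4 fits that left out 1 library, these estimates ran from -2.55 to -2.41 for C2, -3.28 to -2.29 for Cfb, -1.27 to -1.10 for C1ra and -1.02 to -0.87 for C4b. Without double knockout D.f. replicate 5 or 6 the spread came from the wild-type D.f. pair alone, and the interaction then called more members and genes. Without wild-type D.f. replicate 3 or replicate 4 it called no member and no gene. The interaction and the comparison with wild type share the D.f. libraries. Only the interaction also uses the lone PBS libraries, and for all 9 members the double knockout one was above the wild-type one. C4b was at 151 CPM in the PBS double knockout against 97.0 CPM in PBS wild type, and C1qa at 18.8 against 13.5 CPM. For C1qa the interaction was -0.49, against -0.01 between the genotypes with D.f. The signs of the interaction thus rest in part on 1 PBS library of each genotype.

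**Figure D4:**
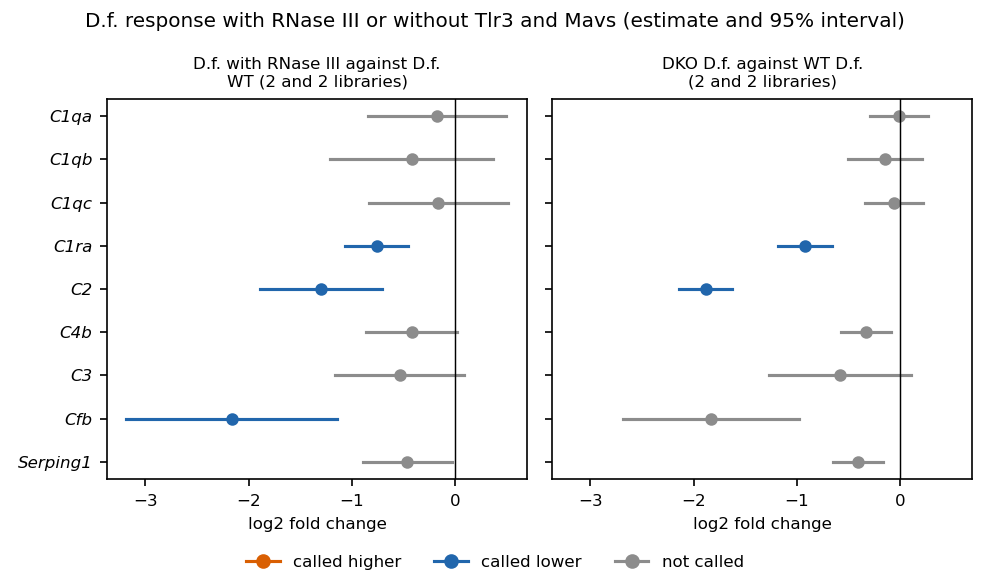
Log2 fold change of each complement gene for RNase III in the D.f. extract (wild type, against D.f. alone) and for the double knockout against wild type with D.f. (edgeR; points, estimates; lines, 95% intervals). Blue marks genes called lower and grey those not called. All 18 estimates lie left of 0, and C1ra and C2 are blue in both panels.

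Promoters are shown for C1ra and C3, members that were higher with D.f., beside C1qc, which was not called. They are the 250 bases before the start site in the RefSeq promoter table (build GRCm38.p6, not the mm9 of the count files), which held 4 of the 9 members. The C1ra stretch is chr6:124512371-124512620 (plus strand), that of C3 chr17:57228137-57228386 (minus strand) and that of C1qc chr4:136892915-136893164 (minus strand), each 5′ to 3′. Both strands were searched for the interferon-stimulated response element (GAAA and GAAA with 2 bases between), the gamma-activated site (TTC and GAA with 3 bases between) and an NF-kB site, and capitals mark a match.
C1ra: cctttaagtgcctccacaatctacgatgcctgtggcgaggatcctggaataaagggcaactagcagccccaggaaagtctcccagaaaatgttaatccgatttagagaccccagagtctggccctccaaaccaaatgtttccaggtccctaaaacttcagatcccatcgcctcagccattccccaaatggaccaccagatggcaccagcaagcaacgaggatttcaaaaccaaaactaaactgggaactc
C3: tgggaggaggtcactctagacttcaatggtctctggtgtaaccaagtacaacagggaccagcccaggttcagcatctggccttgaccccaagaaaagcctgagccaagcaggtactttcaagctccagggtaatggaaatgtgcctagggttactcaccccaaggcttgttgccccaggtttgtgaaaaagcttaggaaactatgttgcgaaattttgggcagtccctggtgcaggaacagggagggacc
C1qc: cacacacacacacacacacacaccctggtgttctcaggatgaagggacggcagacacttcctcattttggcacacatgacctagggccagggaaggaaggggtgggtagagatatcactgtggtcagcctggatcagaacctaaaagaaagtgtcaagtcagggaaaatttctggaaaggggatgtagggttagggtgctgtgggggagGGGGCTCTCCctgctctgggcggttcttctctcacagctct
Of these and C1qb, the fourth member in the table, only C1qc held a match, an NF-kB site that starts 41 bases before the start site. The bases just after the start site were found in 1 GENCODE transcript each of C1qc, C1ra and C3, but in 0 of C1qb. The C1qb window may thus not lie at a start site of that annotation. Over 32851 promoters of the table, 2.98% held the response element, 7.02% the gamma-activated site and 7.25% the NF-kB site. The absence of these letters in a window says nothing about binding of a factor.

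Of the other genes of the complement system listed, 32 of 45 passed the filter in the RNase III set and 30 of 44 did in the other. Of the 32, 6 were called higher with D.f. than with PBS and none lower, against 6.51% and 4.50% of all genes, with a median log2 difference of -0.02. They were the receptors and receptor subunits Itgam (1.70 ± 0.18), C3ar1 (1.95 ± 0.35), Itgax (0.82) and Itgb2 (0.67), the protease gene C1s (0.63 ± 0.12) and Clu (1.09), whose product clusterin inhibits the terminal pathway (edgeR, adjusted p 0.0018 to 0.0471). Itgam and Itgb2 form the integrin that binds cleaved C3 on neutrophils and monocytes, and C3ar1 is the receptor for the C3a fragment. Of the 30 in the knockout set, C1s alone was called higher in wild type, by 0.91 ± 0.12 (edgeR, adjusted p = 0.0393), against 1.38% of all genes. C1s shares 22.4% of its exon bases with other genes of the RNase III set tables and 5.87% with other genes of the knockout set tables. With RNase III in the extract, Hc, the gene of complement C5, and Cd59a, a membrane inhibitor of the terminal pathway, were higher by 0.76 ± 0.17 and 0.78, and Itgam and C3ar1 fell by 1.05 and 1.68 (edgeR, adjusted p 0.0143 to 0.0441). These were 2 genes higher and 2 lower of the 32, against 2.41% and 4.85% of all genes. Hc had 830 and 666 CPM with D.f. and RNase III, 444 and 438 CPM with D.f. and 618 and 773 CPM with PBS. In the fit over both sets Hc fell by 0.71 ± 0.11 with D.f. in wild type (edgeR, adjusted p = 0.0057), opposite in direction to the called members. In the double knockout none of the 30 was called for D.f. against PBS by edgeR, against 0% of all genes. Against wild type with D.f., C1s was lower in the double knockout, at -0.57 ± 0.09 (edgeR, adjusted p = 0.0494). Of all genes, 2.01% were called lower in that comparison.

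**Figure D5:**
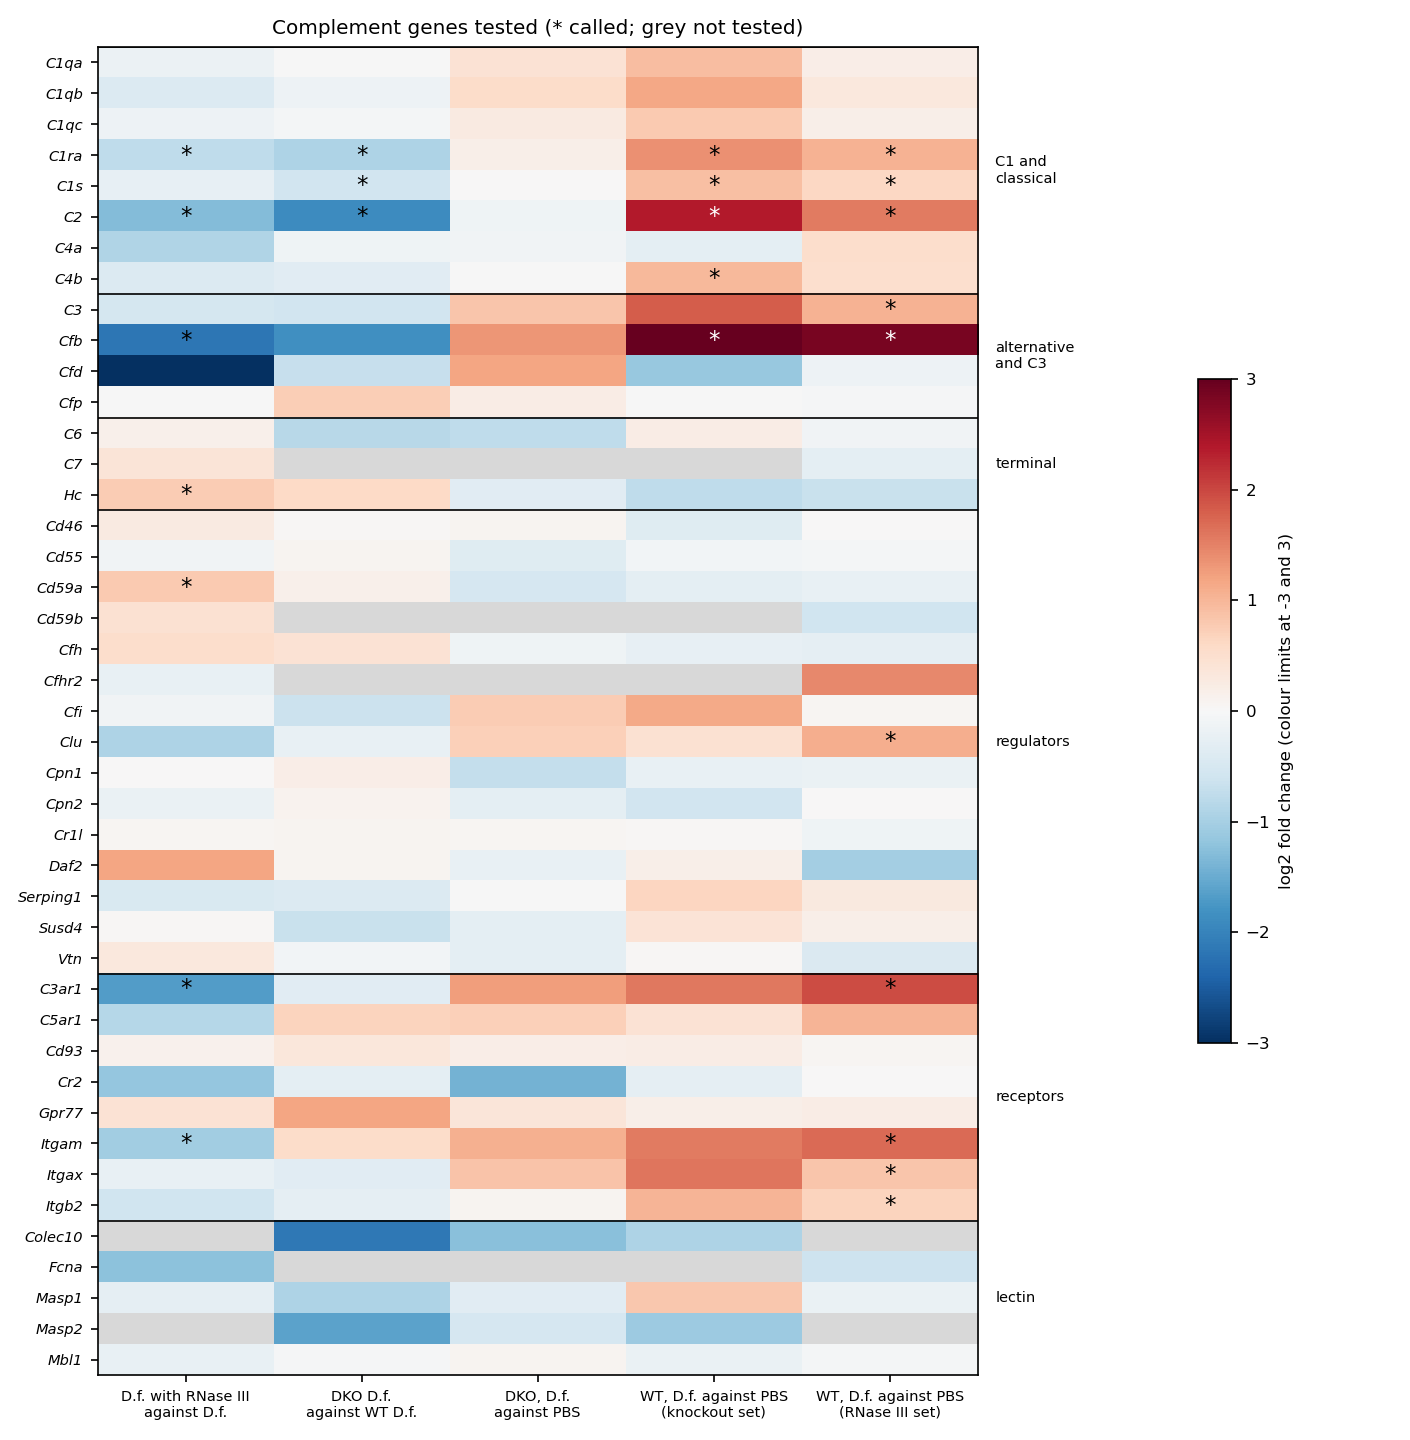
Log2 fold change of the tested complement genes (rows, grouped by pathway) in 5 comparisons (columns), with colour limits at -3 and 3. Stars mark genes called at an adjusted p under 0.05 by edgeR and grey cells were not tested. C1ra and C2 carry stars in 4 of the 5 columns and Cfb in 3, and no gene has one for D.f. against PBS in the double knockout.

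Patterns over the 12 libraries were compared by the root mean square (RMS) difference of log2(CPM + 1), after each set was centred on its own mean, among 14705 genes. C1qa was closest to C1qc (RMS 0.084) and then Arpc3 (0.119), and C1qb was closest to C1qa (0.139) and C1qc (0.147). C1ra was closest to Glipr2 (0.098) and Prkcd (0.123), C2 to Mitd1 (0.209) and Adar (0.213), and C3 to Slc5a1 (0.158) and Bcl2a1b (0.189). C4b was closest to Cacnb3 (0.118) and Lass6 (0.120), and Serping1 to Rab8a (0.089) and Ccnd3 (0.092). Cfb was closest to Pigr (0.380) and Vcan (0.457). In the RNase III set, where Gm20547 is listed, Cfb had only 0.221 to 3.35 CPM, so adding 1 CPM narrows its differences there. A gene that varies little is close to many others and one that varies widely to few, so these distances rank genes within a member only.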

How the data were processed

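Whole-lung RNA was extracted with TRIzol and sequenced as 100-base single-end reads from TruSeq total RNA libraries, per the labels' protocols. Reads were mapped to mm9 with TopHat2 2.0.8b and counted with HTSeq, per the submitters' processing notes. HTSeq's annotation and strand option are not stated, so overlapping and antisense genes cannot be told apart. The authors deposited 1 table of raw read counts per library, without normalization. Of all counts, with the lines that name no gene among them, 36.8% to 44.6% were on the line for alignments that were not unique. The lines that name no gene entered neither library sizes nor tests.

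Counts were fitted in R 4.3.3 with edgeR 4.0.16 (TMM, filterByExpr, glmQLFit, glmQLFTest; Benjamini-Hochberg adjusted p under 0.05 over all genes), each set of 6 libraries by itself with 1 mean for each group (residual degrees of freedom 3 for RNase III, 2 for knockout). Levels are CPM on TMM-scaled library sizes, and fold changes are log2 ± SE. RLE scaling, no filter, DESeq2 1.42.0, other sample choices and leaving out each library were alternatives. The fits were tested on simulated data. Replicate pairs differed by 7.33 to 46.6 times sampling noise (chi-square per degree of freedom), so none was counted once. Per comparison, up to 6 called complement genes in each direction, and for each member its 2 nearest genes, are named besides the 9 members. The members and lists were chosen with earlier results of these data known.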

Additional observations from a re-analysis of the deposited data

Results flagged for a closer look

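C2 was picked out because its responses ran in opposite directions in the 2 genotypes. Both D.f. double knockout libraries (16.1 and 14.8 CPM) lay below the double knockout PBS library (16.8 CPM), and both D.f. wild-type libraries (56.4 and 57.6 CPM) lay above the wild-type PBS library (11.04 CPM). The interaction was -2.49 on the log2 scale and was not called by edgeR's quasi-likelihood test (Benjamini-Hochberg adjusted p = 0.112). EdgeR without the filter on low counts called it (adjusted p = 0.0225) and so did DESeq2 (1.9e-09), but edgeR did not with RLE scaling (0.123) or in a fit over all 12 libraries (0.067). Its estimate ran from -2.55 to -2.41 over the 4 fits that left out 1 library. It was called when the spread came from the wild-type D.f. pair alone, without double knockout D.f. replicate 5 or 6. It was not called when the spread came from the double knockout D.f. pair alone, without wild-type D.f. replicate 3 or 4. The fall in the double knockout, -0.12, was itself not called, and each genotype had 1 PBS library.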

How the results depend on the processing

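Leaving out 1 library at a time moved the number of members called to 1 to 7 in the RNase III set for D.f. against PBS, 0 to 3 for RNase III with D.f. against D.f., 0 to 0 for RNase III with D.f. against PBS, 0 to 9 for D.f. against PBS in wild type of the knockout set, 0 to 4 in the double knockout, 0 to 6 for double knockout against wild type with D.f., 0 to 6 for the interaction and 3 to 9 over both sets. Leaving out a library of a replicate pair left 1 library in that group, and in the fit of a single set the spread then came from the other groups alone. In the knockout set it came from the other D.f. pair alone, so calls of these fits rest on that pair. DESeq2 called 8 members in wild type of the knockout set, 4 for double knockout against wild type and 3 for the interaction. The fit without a filter on low counts called 1 for the interaction, and the fit of only the groups compared called 9 in wild type of the knockout set. All other alternatives that kept every library left these counts within 1.5 times. Of 342 values of single members under these other settings, 316 kept direction and call, 21 gained a call and 4 lost one. The 1 change of direction was C1qa for double knockout against wild type, at 0.0116 in a fit over all 12 libraries. C3 in the RNase III set lost its call for D.f. against PBS with RLE scaling (adjusted p = 0.0509, edgeR), in that fit (0.0519) and with only the groups compared (0.127), and C4b in wild type of the knockout set lost its call in that fit (0.0589).

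Directions that turned round when 1 library was left out were all of uncalled members. With D.f. against PBS (RNase III set) the log2 range was -0.18 to 0.70 for C1qa, -0.17 to 1.04 for C1qb and -0.23 to 0.77 for C1qc. For RNase III with D.f. against D.f. it was -0.40 to 0.10 for C1qa. For RNase III with D.f. against PBS it was -0.35 to 0.52 for C1qa, -0.58 to 0.63 for C1qb, -0.39 to 0.61 for C1qc, -0.0345 to 0.65 for C2, -0.15 to 0.35 for C4b and -0.33 to 0.011 for Serping1. In the double knockout it was -0.0215 to 0.00903 for C4b and -0.082 to 0.0342 for Serping1, and against wild type with D.f. -0.075 to 0.0533 for C1qa and -0.30 to 0.000515 for C1qb. Lone PBS libraries could not be left out of their own comparison. Over all genes, DESeq2 called 642 genes against 232 by edgeR in wild type of the knockout set, 37 against 0 in the double knockout, 729 against 387 for double knockout against wild type, 213 against 1 for the interaction, 1912 against 1246 for RNase III with D.f. against D.f. and 47 against 1 for it against PBS. Fitting only the groups compared called 979 against 1890 genes for the extract in wild type of the RNase III set, 2869 against 1246 for RNase III with D.f. against D.f., 0 against 1 for it against PBS and 3062 against 232 in wild type of the knockout set. Without the filter 391 genes were called there, 10 for RNase III with D.f. against PBS and 16 for the interaction, and the fit over all 12 libraries called 391 and, for the interaction, 7. Leaving out 1 library moved the genes called to 584 to 3071 (1890 with all) for the extract in wild type of the RNase III set, 146 to 2874 (1246) for RNase III with D.f. against D.f., 0 to 188 (1) for it against PBS, 0 to 3150 (232) in wild type of the knockout set, 0 to 2092 (0) in the double knockout, 7 to 3048 (387) for double knockout against wild type, 0 to 1666 (1) for the interaction and 1112 to 2425 (2252) over both sets. No paired analysis was possible because the groups compared within a set share no replicate number. Low counts limit Cfb in the RNase III set, where 4 reads were counted in PBS replicate 1.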
